A study of Mus musculus with 6 samples.

Results

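10 genes of the extracellular matrix of the outflow tract (OFT) cushions were followed in bulk RNA-Seq of the mouse embryonic heart, out of 28777 genes with counts. They were chosen by name, for what they encode, but with earlier results of these data known. They are the proteoglycan *Vcan*, the hyaluronan synthase *Has2*, the link protein *Hapln1*, the hyaluronan receptor *Cd44*, the matricellular protein *Postn*, and the small leucine-rich proteoglycans *Bgn*, *Dcn*, *Lum*, *Ogn* and *Aspn*. All 10 passed the filter on low counts, with between 251 and 81681 reads per gene and library. The OFT was cut from E13.5 embryos at its base, below the conal cushions, so that each library holds myocardium, endothelium, smooth muscle and cushion mesenchyme together. 3 libraries are labelled Notch1-het; Nos3-null (*Notch1*+/-; *Nos3*-/-, called mutant here) and 3 are labelled wildtype (*Notch1*+/+; *Nos3*+/+ littermates). Each library pools 3 OFTs, 18 OFTs in all, so no value is that of a single embryo, and both alleles are carried by every cell of the embryo and not by the cushions alone. In a bulk sample, fewer cells of a type and less RNA per cell cannot be told apart.

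The swellings that later form the semilunar valves are filled with hyaluronan, a long sugar polymer made at the plasma membrane by hyaluronan synthases. Versican, the product of *Vcan*, is a chondroitin sulfate proteoglycan whose head binds hyaluronan, link protein fastens the bond, and CD44 on the cell surface holds on to the polymer. Periostin and the small leucine-rich proteoglycans belong to the fibrous matrix that accompanies it: they bind collagen fibrils and govern how these assemble, and the core proteins of most of them carry chondroitin, dermatan or keratan sulfate chains.

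The labels were checked on the targeted genes first. *Notch1* had 74.3, 88.2 and 83.6 CPM (counts scaled to library size) in wildtype replicates 1, 2 and 3, and 154.9, 160.5 and 139.4 CPM in mutant replicates 1, 2 and 3. It was thus higher in every library under the label of the heterozygote (log2 fold change 0.89, edgeR quasi-likelihood test with Benjamini-Hochberg adjustment, adjusted p = 0.0313). This is the opposite of what the loss of 1 copy would give if RNA followed gene dose. Counts over the whole gene do not show which allele they come from, so the genotype itself was not tested. Every direction below is therefore given between the libraries labelled mutant and the libraries labelled wildtype. *Nos3* had 31.8, 47.2 and 48.1 CPM under the wildtype label and 22.1, 22.0 and 20.4 CPM under the mutant label (log2 fold change -0.98, edgeR adjusted p = 0.128). *Nos3* was thus lower in every library labelled mutant, which is the direction of the label. The libraries held between 34729103 and 44387490 counts. Wildtype replicates 2 and 3 have opposite library numbers in their titles and descriptions, so which of them is which is uncertain, and values follow the titles.

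Among the 10 genes wildtype replicate 1 was the highest wildtype library for 8, against 39.1% of the 16655 genes that averaged 1 CPM or more. It was singled out after these values were seen, and fold changes are given with and without it below. The other wildtype libraries were not alike either, as in *Bgn* with 542.4, 374.4 and 279.6 CPM in wildtype replicates 1, 2 and 3. The cell type markers of the wildtype libraries moved as well. The summed level of 10 Mesenchymal markers (among them *Prrx1*, *Twist1*, *Sox9*, *Pdgfra* and *Col1a1*) was 5902, 4505 and 2996 CPM in wildtype replicates 1, 2 and 3, and 6957, 7796 and 5460 CPM in the mutant libraries, which overlap. The sum of 10 Myocardial markers ran between 23320 and 33770 CPM under the wildtype label and between 16050 and 22510 CPM under the mutant label. All 10 Myocardial markers had a log2 fold change below 0, with a median of -0.49. Of these, 7 had an unadjusted p under 0.05 and 0 were called by edgeR. Liver markers, which an OFT should lack, summed to 1.44, 95.5 and 25.9 CPM in wildtype replicates 1, 2 and 3 and to between 1.17 and 4.94 CPM in the mutant libraries.

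The 10 genes differ widely in level. Per kilobase of merged exons (RPKM, from TMM-normalized CPM), *Postn* had the highest mean under the wildtype label, 144.6 ± 58.7 RPKM (SD, n = 3), followed by *Vcan* with 79.4 ± 30.1, *Lum* with 76.2 ± 39.2 and *Bgn* with 65.4 ± 21.8 RPKM. The ranges of these neighbours in the order overlapped across libraries. Within libraries *Postn* was the highest of the 10 in all 6, while *Vcan* was above *Lum* in 1 of the 3 wildtype libraries and *Lum* above *Bgn* in 2 of the 3, so that among these 4 only the first place was seen to hold in each library. *Dcn* came next with 32.2 ± 6.16 RPKM, separate from *Bgn* above and from *Hapln1* below it. The lower genes were *Hapln1* with 11.0 ± 2.83, *Ogn* with 9.89 ± 2.97, *Cd44* with 7.99 ± 1.65, *Aspn* with 7.20 ± 4.66 and *Has2* with 4.73 ± 2.75 RPKM, and each of them overlapped the next, although *Aspn* was above *Has2* within each of the 3 wildtype libraries. Under the mutant label *Postn* was again first, at 213.0 ± 6.68 RPKM, above every library of *Lum* (109.8 ± 13.9 RPKM), which overlapped *Vcan* (106.8 ± 5.74 RPKM). *Bgn* (92.2 ± 8.65), *Dcn* (42.4 ± 3.66) and *Hapln1* (16.0 ± 0.855 RPKM) followed without overlap, and *Ogn*, *Aspn*, *Cd44* and *Has2*, between 7.30 and 8.48 RPKM on average, each overlapped the next in the order.

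**Figure D1:**
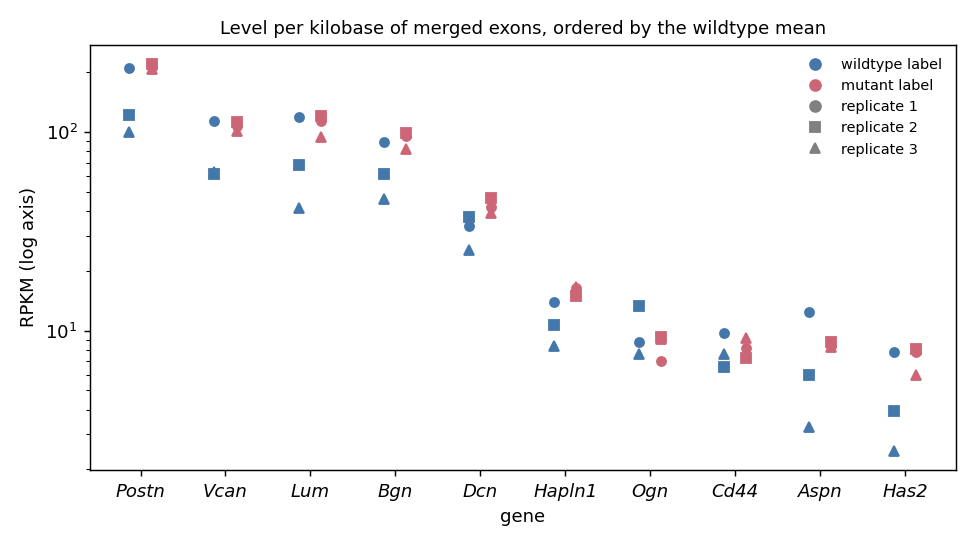
Level of each gene in RPKM on a log axis, ordered from left to right by the mean of the libraries labelled wildtype; colour gives the label and symbol the replicate number. *Postn* leads under both labels, and each of the 4 genes at the right (*Ogn*, *Cd44*, *Aspn*, *Has2*) overlaps the next one in range.

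Between the labels, none of the 10 genes passed the test: 0 of 10 were called by edgeR at an adjusted p of at most 0.05, where 0.0213% of the 28157 genes tested were (0.0178% as higher under the mutant label). 4 of the 10 had an unadjusted p under 0.05 (*Hapln1*, *Dcn*, *Postn* and *Bgn*), all higher under the mutant label, where 8.23% of all genes were higher at that p and 16.1% differed in either direction. This number was 8 without wildtype replicate 1 and between 1 and 3 when any other library was left out. The log2 fold change was above 0 for 9 of the 10 genes, against 51.2% of all genes, and its median was 0.46, against 0.011 over all genes. *Hapln1* was the single member called by DESeq2's Wald test (adjusted p = 0.0434), which called 2.64% of all genes and 1.46% as higher. The study lists *Vcan* as differentially expressed by its own DESeq2 analysis, whereas the DESeq2 Wald test here gave *Vcan* an adjusted p of 0.209. The reason for this difference was not tested.

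The wildtype libraries did not stand together. Wildtype replicates 2 and 3 were both below every mutant library for 8 of the 10 genes, the exceptions being *Cd44* and *Ogn*, and for 22.0% of all genes tested, a count made after the values of wildtype replicate 1 were seen, whereas wildtype replicate 1 was below every mutant library for 2, *Hapln1* and *Dcn*. Hence the groups did not overlap for 2 genes, both with the mutant libraries above, while 10.7% of all genes stood that way, and 0 genes had the mutant libraries below, where 8.94% of all genes did (19.6% in either direction). Wildtype replicate 3 was the lowest of all 6 libraries for 7 of the 10 genes and for 21.4% of all genes tested. The 3 mutant libraries lay close together: the SD of log2 CPM was larger under the wildtype label for 10 of 10 genes, against 66.6% of the genes that averaged 1 CPM or more.

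**Figure D2:**
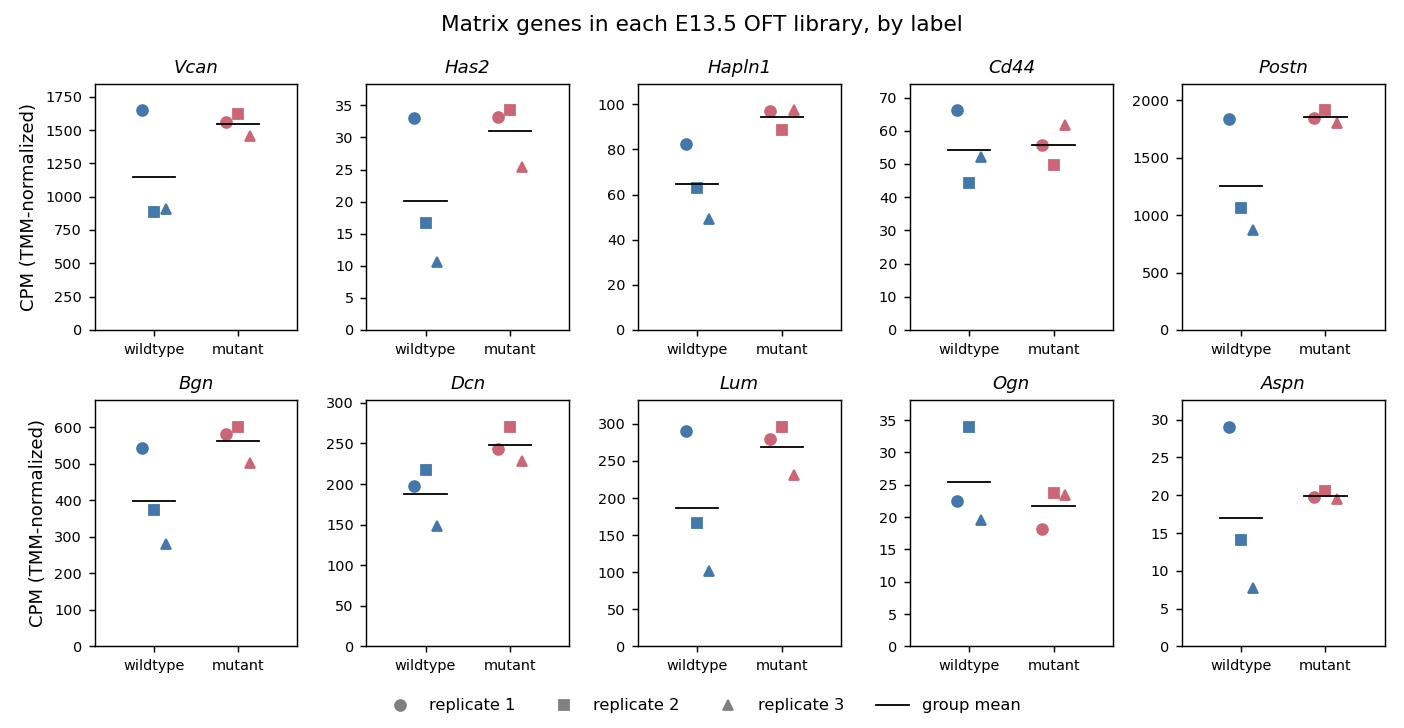
TMM-normalized CPM of the 10 genes in each library, by label, on axes that start at 0; symbols give the replicate number and the line the mean of 3 libraries. For *Has2*, *Postn*, *Bgn* and *Lum* wildtype replicate 1 lies among the mutant libraries while wildtype replicates 2 and 3 lie below, as in *Postn* with 1837 against 1065 and 871.4 CPM.

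*Has2* encodes the synthase that makes most of the hyaluronan of the embryonic heart. The gene lies on the minus strand of chromosome 15 (mm10, chr15:56665627-56694539). Its level was 33.0, 16.7 and 10.5 CPM in wildtype replicates 1, 2 and 3, and 33.2, 34.3 and 25.4 CPM in mutant replicates 1, 2 and 3. Wildtype replicate 1 lay among the mutant libraries and the other wildtype libraries lay below all of them, so the groups overlapped. The log2 fold change was the largest of the 10, 0.62 ± 0.32 (SE), with an edgeR adjusted p of 0.359. Without wildtype replicate 1 it was 1.18 with an edgeR adjusted p of 0.0188. The antisense gene *Has2os*, which overlaps *Has2*, had at most 22 reads in a library.

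*Vcan* and *Hapln1*, the proteoglycan and the link protein that hold each other on hyaluronan, are neighbours on chromosome 13, on opposite strands with 43.7 kb between them (chr13:89655312-89742509 and chr13:89539796-89611652). *Vcan* had 1650, 888 and 905.5 CPM in the wildtype libraries and 1559, 1620 and 1456 CPM in the mutant libraries. Its highest value was that of wildtype replicate 1, and the groups overlapped (log2 fold change 0.43 ± 0.21, edgeR adjusted p = 0.342). *Hapln1* had 82.5, 62.8 and 49.3 CPM in the wildtype libraries and 97.0, 88.5 and 97.5 CPM in the mutant libraries. Here every mutant library lay above every wildtype library (log2 fold change 0.54 ± 0.16, edgeR adjusted p = 0.198), and the two-sided exact permutation test gave p = 0.1, the smallest that 3 libraries against 3 allow. Without wildtype replicate 1 the log2 fold change was 0.78 for *Vcan* and 0.75 for *Hapln1*, with edgeR adjusted p of 0.00506 and 0.0162. Per kilobase there were between 5.77 and 8.16 *Vcan* reads for each *Hapln1* read in the wildtype libraries and between 6.10 and 7.47 in the mutant libraries, which overlap. *Hapln1* holds a processed pseudogene on the opposite strand, *Gm8546*, whose own counts reached 43.9% of those of *Hapln1* in a library. Counting was on exons, and whether exons of these genes overlap was not checked. The counting is not stated to use strand either, so any effect of the pseudogene on the value of *Hapln1* was not tested.

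*Cd44*, the receptor (chr2:102811141-102901665, minus strand), did not share the pattern. It had 66.3, 44.3 and 52.0 CPM in the wildtype libraries and 55.6, 49.6 and 61.9 CPM in the mutant libraries. The mutant libraries all fell inside the range of the wildtype ones, and the log2 fold change was 0.04 ± 0.15 (edgeR adjusted p = 0.924). It was 0.21 without wildtype replicate 1, with an edgeR adjusted p of 0.278, and below 0 without wildtype replicate 2 (-0.09) or without mutant replicate 3 (-0.04).

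*Postn*, which encodes a secreted protein of cushion mesenchyme and later valve interstitial cells, gave the most reads of the 10 (chr3:54361109-54391037). Its level was 1837, 1065 and 871.4 CPM under the wildtype label and 1844, 1917 and 1802 CPM under the mutant label. The mutant libraries differed by a factor of 1.06 from lowest to highest and the wildtype libraries by a factor of 2.11, with wildtype replicate 1 inside the mutant range. The log2 fold change was 0.56 ± 0.22 (edgeR adjusted p = 0.273) with all libraries and 0.94 without wildtype replicate 1 (edgeR adjusted p = 0.00546). Per kilobase there were 1.85, 1.99 and 1.60 *Postn* reads for each *Vcan* read in the wildtype libraries and 1.97, 1.97 and 2.06 in the mutant libraries, which overlap (exact permutation p = 0.3).

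Of the small leucine-rich proteoglycans, biglycan, decorin and asporin form 1 class by sequence. Biglycan and decorin bind collagen and sequester Tgf-β; asporin has a run of aspartates in place of their sugar chains. *Bgn* (chrX:73483602-73495933) had 542.4, 374.4 and 279.6 CPM in the wildtype libraries and 582.5, 602 and 502.5 CPM in the mutant libraries. Wildtype replicate 1 passed the lowest mutant library, so the groups overlapped (log2 fold change 0.50 ± 0.20, edgeR adjusted p = 0.273). *Dcn* (chr10:97479609-97518143) had 197.4, 217.9 and 147.9 CPM in the wildtype libraries and 243.7, 270.8 and 228.6 CPM in the mutant libraries. Here the mutant libraries all lay above the wildtype libraries, and the highest wildtype library was replicate 2 and not replicate 1 (log2 fold change 0.40 ± 0.14, edgeR adjusted p = 0.237, exact permutation p = 0.1). Left without wildtype replicate 1, *Bgn* had a log2 fold change of 0.78 (edgeR adjusted p = 0.0188) and *Dcn* one of 0.44 (edgeR adjusted p = 0.1).

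*Aspn* (chr13:49544443-49567565) varied more among the wildtype libraries than any other member, with 29.1, 14.0 and 7.73 CPM, a factor of 3.76 from lowest to highest. The mutant libraries held 19.8, 20.6 and 19.5 CPM and lay inside the wildtype range. The log2 fold change was 0.23 ± 0.35 (edgeR adjusted p = 0.792), it was 0.87 without wildtype replicate 1 (edgeR adjusted p = 0.0354) and it turned to -0.11 without wildtype replicate 3. Its direction thus depended on wildtype replicate 3.

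*Lum* encodes lumican, a keratan sulfate proteoglycan of collagen fibrils (chr10:97565128-97572703). It had 290.6, 167 and 101.7 CPM in the wildtype libraries and 278.9, 296.3 and 230.8 CPM in the mutant libraries. Wildtype replicate 1 again lay among the mutant libraries (log2 fold change 0.53 ± 0.29, edgeR adjusted p = 0.389), and without it the log2 fold change was 1.00 (edgeR adjusted p = 0.0223). *Ogn* encodes osteoglycin, also called mimecan (chr13:49608046-49624501), and was the only one of the 10 with a log2 fold change below 0. Its levels were 22.5, 34.0 and 19.6 CPM in the wildtype libraries and 18.1, 23.8 and 23.4 CPM in the mutant libraries, with wildtype replicate 2 the highest (log2 fold change -0.22 ± 0.19, edgeR adjusted p = 0.596). Without wildtype replicate 2 it was 0.05. Wildtype replicate 2 also had the highest sums of the Epicardial (412.4 CPM), Blood (11800 CPM), Macrophage (143.9 CPM), Endoderm (14.3 CPM) and Liver (95.5 CPM) markers, and the part of any of these in the level of *Ogn* was not tested.

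**Figure D3:**
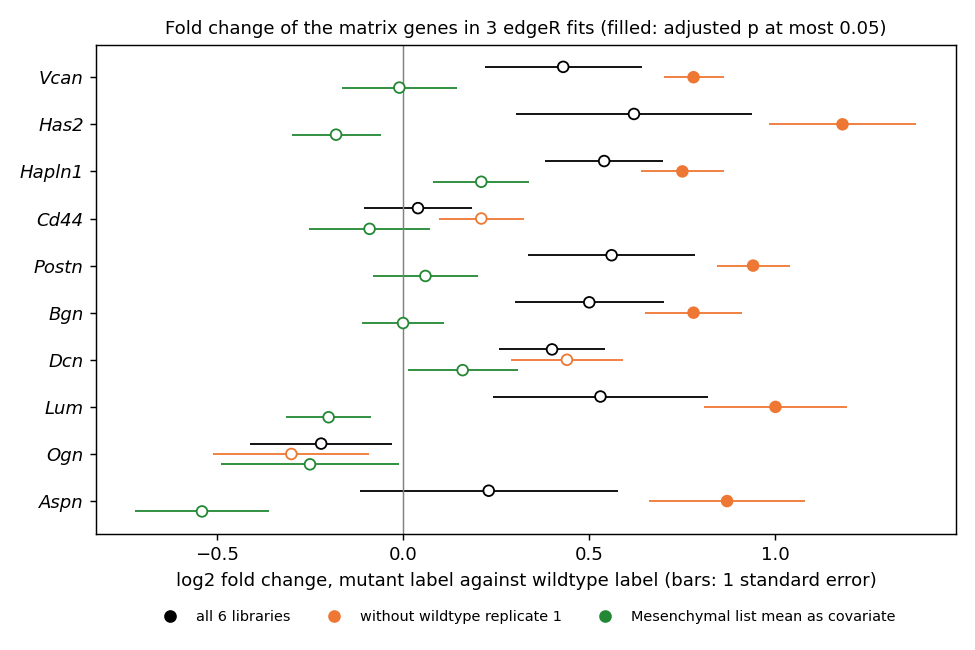
Log2 fold change, mutant label over wildtype label, in 3 edgeR fits, with bars of 1 standard error; filled points have an adjusted p of at most 0.05. Filled points appear only in the fit without wildtype replicate 1 (7 of 10 genes, where 9.45% of all genes were called). With the mean of the Mesenchymal markers as a covariate the values lie on both sides of 0, from -0.54 for *Aspn* to 0.21 for *Hapln1*.

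Leaving out wildtype replicate 1 thus made 7 of the 10 genes pass (*Vcan*, *Has2*, *Hapln1*, *Postn*, *Bgn*, *Lum* and *Aspn*), all higher under the mutant label, and moved the median log2 fold change to 0.78. That fit called 9.45% of all genes tested, and 4.15% as higher. Leaving out any other library made 0 of 10 pass, in fits that called between 0.00364% and 0.0109% of all genes tested. For these 7 genes wildtype replicate 1 was the highest wildtype library, so leaving it out raises the log2 fold change by construction. The calls without it are thus no separate support. The wildtype libraries left, replicates 2 and 3, held the liver markers (95.5 and 25.9 CPM) and the lower Mesenchymal sums (4505 and 2996 CPM).

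The levels of most of the genes moved with the Mesenchymal markers over the wildtype libraries. All 10 Mesenchymal markers were higher under the mutant label, with a median log2 fold change of 0.63; 8 had an unadjusted p under 0.05 and 0 were called by edgeR. The median deviation of the Mesenchymal markers from their mean over libraries was 0.27, -0.41 and -0.93 (log2) in wildtype replicates 1, 2 and 3, and that of the 10 genes was 0.29, -0.30 and -0.69. In mutant replicates 1, 2 and 3 the markers stood at 0.49, 0.54 and 0.05 and the 10 genes at 0.28, 0.33 and 0.14. Not every gene followed. *Ogn* and *Dcn* were highest of the wildtype libraries in replicate 2 (0.55 and 0.03), and *Cd44* was lowest there (-0.30). *Vcan* was also lowest there (-0.55) and nearly level with wildtype replicate 3 (-0.52), where the markers fell further. *Hapln1* was highest in mutant replicate 3 (0.33), the lowest mutant library for the markers. When the level of each gene was divided by the summed Mesenchymal level of the same library, the groups overlapped for all 10. Undivided, they had overlapped for all but *Hapln1* and *Dcn*. The Mesenchymal sum itself holds matrix genes, among them *Col1a1*. After division *Vcan* stood at 279.5, 197.1 and 302.2 per 1000 Mesenchymal CPM in the wildtype libraries and at 224.1, 207.8 and 266.6 in the mutant libraries. *Hapln1* stood at 14.0, 13.9 and 16.5 in the wildtype libraries and at 13.9, 11.4 and 17.9 in the mutant libraries. With the mean of the Mesenchymal markers as a covariate, 3 of the 10 genes had a log2 fold change above 0, the median was -0.05 and 0 were called, in a fit that called 0.0462% of all genes. With the mean of the Myocardial markers as a covariate, 8 were above 0 and the median was 0.13. Both covariates themselves differ between the labels, so a difference of the genes and a difference in the amount of mesenchyme or muscle in the libraries cannot be told apart.

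Of the 8 Cartilage markers 6 were higher under the mutant label, 3 with an unadjusted p under 0.05, and 0 were called by edgeR. Their log2 fold changes ran from -0.75 to 1.47 with a median of 0.54, and 5 were called as higher without wildtype replicate 1, in the fit that called 4.15% of all genes as higher. They summed to between 191.7 and 374.9 CPM under the wildtype label and between 291.2 and 452.4 CPM under the mutant label, and their part in the proteoglycan levels was not tested. The highest wildtype sum was that of wildtype replicate 1, so leaving it out widens the difference of the Cartilage sums by construction. The Endothelial and VSMC sums overlapped between the labels, at 1074 to 1465 against 1126 to 1289 CPM and at 1722 to 2139 against 1638 to 1788 CPM. Single markers differed more: 6 of 8 VSMC markers were higher (median log2 fold change 0.20), with 4 higher and 1 lower at an unadjusted p under 0.05. Of the 10 Endothelial markers 2 were higher (median -0.06), with 2 higher and 1 lower at that p. In both lists 0 were called by edgeR with all libraries.

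**Figure D4:**
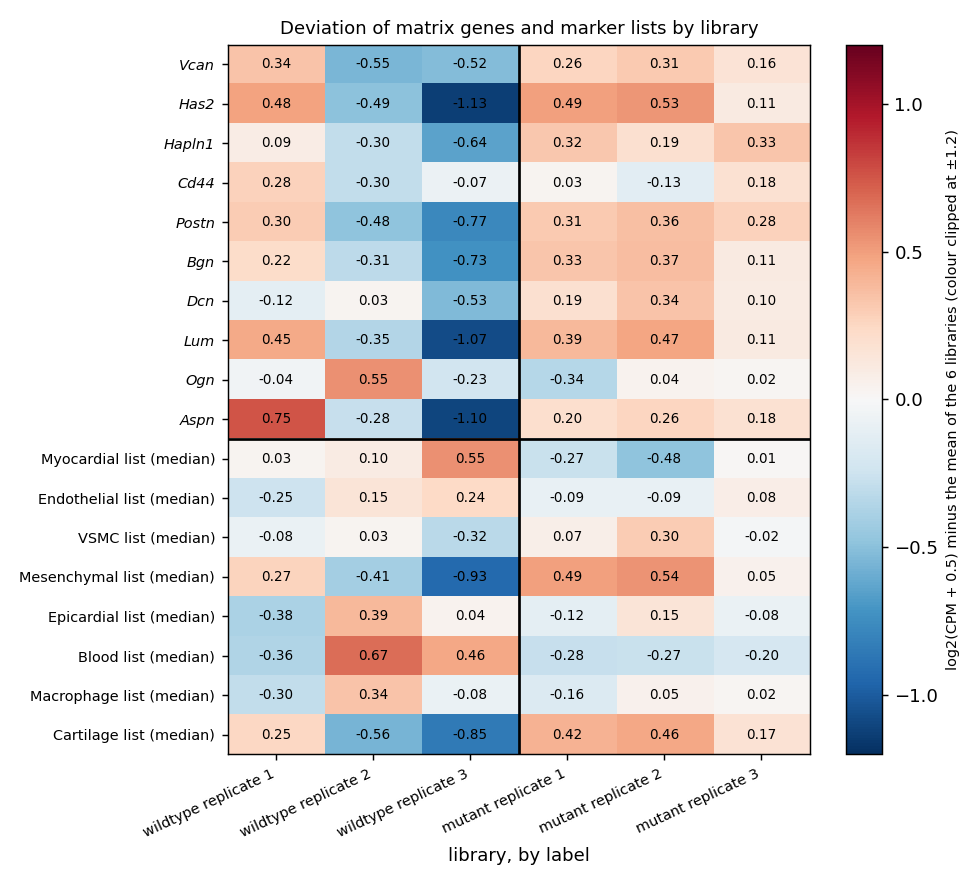
Deviation of each gene (rows above the line) and median deviation of each marker list (rows below) from the mean over the 6 libraries, as log2 of CPM plus 0.5; columns are libraries and numbers in the cells are the deviations. The rows of the Mesenchymal and Cartilage lists share the low values of most of the genes in wildtype replicates 2 and 3, down to -0.93 for the Mesenchymal list in wildtype replicate 3.

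2 further runs of genes hold the leucine-rich proteoglycans in the genome. On chromosome 10, *Dcn*, *Lum*, *Kera* and *Epyc* lie one after another on the same strand, with 47.0 kb between *Dcn* and *Lum*. *Kera* (keratocan) had at most 19 reads and *Epyc* (epiphycan) at most 63 reads in a library, and their log2 fold changes were 0.47 ± 0.77 and 0.89 ± 0.50, neither called by edgeR. *Lum* and *Dcn* did not keep a fixed ratio: per kilobase there were 3.51, 1.83 and 1.64 *Lum* reads for each *Dcn* read in wildtype replicates 1, 2 and 3, and 2.73, 2.61 and 2.41 in the mutant libraries, which lie between the wildtype values (exact permutation p = 0.5).

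On chromosome 13, *Ecm2*, *Aspn*, *Omd* and *Ogn* lie in a row on the plus strand, all within *Cenpp*, a centromere protein gene on the minus strand. *Ecm2* had a log2 fold change of -0.13 ± 0.14 and *Omd* (osteomodulin) one of 0.34 ± 0.43 on at most 39 reads in a library, neither called. *Cenpp* itself had 6.39, 7.68 and 7.06 CPM in the wildtype libraries and 4.97, 4.94 and 5.84 CPM in the mutant libraries. It was lower in every mutant library (log2 fold change -0.42 ± 0.15, edgeR adjusted p = 0.243, exact permutation p = 0.1), the only gene of this cluster whose groups did not overlap. *Aspn* and *Ogn*, 40.5 kb apart, went separate ways among the wildtype libraries: per kilobase the ratio of *Aspn* to *Ogn* was 1.41, 0.449 and 0.430 in wildtype replicates 1, 2 and 3, and 1.19, 0.945 and 0.906 in the mutant libraries (exact permutation p = 0.4). The counts of *Cenpp* reached 91.2% of those of *Aspn* and 36.0% of those of *Ogn* in a library. Without a stated strand setting the counts of these genes may be affected where their exons overlap, which was not checked.

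Since most of these genes ran in parallel over the libraries, the 250 bases before their start sites were read for 4 short motifs on both strands: TGGGAA (the core bound by RBPJ, the DNA-binding partner of Notch), TATAAA (known as the TATA box), CCAAT (the box of that name) and, for the GC box, GGGCGG. RefSeq's promoter table (GRCm38.p6, the same assembly as mm10) has an entry for 7 of the 10 genes, and *Has2*, *Dcn* and *Lum* are not in it. The windows of *Vcan* and *Cd44* are shown because they hold the RBPJ core, that of *Postn* for its TATA box, and those of *Aspn* and *Ogn* as cluster neighbours whose levels differed over the libraries. They are chr13:89742513-89742762 (minus strand), chr2:102901666-102901915 (minus strand), chr3:54360857-54361106, chr13:49544193-49544442 and chr13:49607765-49608014 (plus strand), each read 5′ to 3′ up to the base before the start, with motif matches in capitals.
Vcan: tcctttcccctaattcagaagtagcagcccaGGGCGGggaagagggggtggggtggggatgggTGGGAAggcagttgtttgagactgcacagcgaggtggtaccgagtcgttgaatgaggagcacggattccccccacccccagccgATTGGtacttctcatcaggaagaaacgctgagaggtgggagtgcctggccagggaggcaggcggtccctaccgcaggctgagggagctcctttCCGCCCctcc
Cd44: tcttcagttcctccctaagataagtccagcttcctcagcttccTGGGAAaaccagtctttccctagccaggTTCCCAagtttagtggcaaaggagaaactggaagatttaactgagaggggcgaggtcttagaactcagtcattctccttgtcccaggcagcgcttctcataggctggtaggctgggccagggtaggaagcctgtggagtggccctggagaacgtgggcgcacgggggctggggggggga
Postn: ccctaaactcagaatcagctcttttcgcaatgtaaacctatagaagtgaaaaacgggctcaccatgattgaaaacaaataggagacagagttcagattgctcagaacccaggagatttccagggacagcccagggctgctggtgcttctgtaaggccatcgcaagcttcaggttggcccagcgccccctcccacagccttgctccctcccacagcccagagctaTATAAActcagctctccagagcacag
Aspn: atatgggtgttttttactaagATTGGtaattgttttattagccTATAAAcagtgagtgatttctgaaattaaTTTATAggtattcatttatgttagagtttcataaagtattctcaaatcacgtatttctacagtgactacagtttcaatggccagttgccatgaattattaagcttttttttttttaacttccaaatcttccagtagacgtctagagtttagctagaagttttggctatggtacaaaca
Ogn: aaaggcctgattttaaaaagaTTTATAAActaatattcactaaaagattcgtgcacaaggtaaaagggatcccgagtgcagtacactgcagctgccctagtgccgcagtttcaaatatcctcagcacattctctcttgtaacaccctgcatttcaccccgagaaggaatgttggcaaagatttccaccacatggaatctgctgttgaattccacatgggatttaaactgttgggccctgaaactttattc

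*Vcan* has 1 RBPJ core on its own strand, beginning 187 bases before the start, 2 GC boxes and 1 inverted CCAAT, and *Cd44* has 2 RBPJ cores, 1 on each strand. The core occurs in 21.6% of the 32851 promoter windows of this length in the table, so its presence in *Vcan* and *Cd44*, 1 with and 1 without the pattern over libraries described above, is a description of the letters and not of a bound site. *Postn* has a TATA box beginning 26 bases before the second of its listed starts, a motif in 12.4% of windows. *Aspn* has a TATAAA on each strand and an inverted CCAAT, and *Ogn* has a TATAAA on each strand that overlap each other; in both genes they lie more than 170 bases before the start. *Bgn* (not shown) has 3 GC boxes, which 32.7% of windows hold, and *Hapln1* (not shown) has none of the 4 motifs.

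The genes that make, bind and cut this matrix were described beside the 10. None of the 73 genes tested in 8 lists was called by edgeR. Without wildtype replicate 1, 22 of them were called, 20 as higher and 2 as lower, in the fit that called 9.45% of all genes. Among the genes named below these were *Ugdh* (log2 fold change 0.71), *Fbn2* (0.79), *Bmp1* (0.72), *Tgfbi*, *Adamts1* (0.56), *Adamts15* (0.87), *Adamts20* (1.62), *Fmod* (1.01), *Tsku* (0.48), *Prelp* (1.40), *Chsy1* (0.51) and *Chst3* (1.38), all higher, and *Itih2*, lower, and *Itih5* (1.03) and *Xylt1* (0.95) from the profiles at the end were also called. Of 13 genes for hyaluronan synthesis and turnover, 9 were higher under the mutant label, 4 with an unadjusted p under 0.05, and 4 were lower at that p, with a median log2 fold change of 0.31 against 0.011 over all genes. Those with the most reads were *Cemip2*, a surface protein linked to hyaluronan breakdown (log2 fold change -0.23 ± 0.11), *Ugp2* and *Ugdh*, which make the UDP-sugar precursor (-0.36 ± 0.14 and 0.46 ± 0.17), and the hyaluronidase *Hyal2* (0.04 ± 0.11). *Ugdh*, the dehydrogenase, had 87.2, 59.3 and 51.8 CPM in the wildtype libraries and 88.5, 97.7 and 87.3 CPM in the mutant libraries, a non-overlapping difference with an edgeR adjusted p of 0.240. Of the 5 other hyaluronan receptors 2 were higher, and 1 had an unadjusted p under 0.05, *Hmmr* (-0.30 ± 0.13), which is also a spindle protein of dividing cells. *Stab1* (0.02 ± 0.16), *Layn* (-0.12 ± 0.14) and *Lyve1* (-0.14 ± 0.37) differed by less than their standard errors, and the median of the list was -0.12.

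Of the 6 other lecticans and link proteins 5 were higher, 1 with an unadjusted p under 0.05 (*Hapln2*), and most were scarce; the median without *Hapln2* was 0.55. *Acan*, the cartilage proteoglycan aggrecan, had 13.0, 11.3 and 4.96 CPM in the wildtype libraries and 16.3, 21.2 and 5.52 CPM in the mutant libraries, which overlap. *Hapln3* (-0.40 ± 0.34), *Ncan* (0.48 ± 0.42) and *Bcan* (0.55 ± 0.57) had at most 44 reads in a library, and *Hapln2* was at 0 counts in every wildtype library and at no more than 7 in a mutant one. Of the 10 partners of versican and periostin 9 were higher, 6 of them with an unadjusted p under 0.05, and the median was 0.44. *Fn1* (fibronectin) was even over the libraries, with 1476, 1443 and 1326 CPM against 1393, 1411 and 1374 CPM (-0.02 ± 0.10), while *Fbln2* (0.68 ± 0.28), *Fbn2* (0.45 ± 0.20) and *Fbn1* (0.19 ± 0.16), a fibulin and the fibrillins of microfibrils, were higher on average. *Tgfbi*, the paralogue of *Postn*, had 364.7, 127.6 and 80.5 CPM in the wildtype libraries and 391, 393.6 and 244 CPM in the mutant libraries (0.84 ± 0.44, edgeR adjusted p = 0.364), and without wildtype replicate 1 its log2 fold change was 1.72 (edgeR adjusted p = 0.0153).

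Of the 6 proteases that cut versican 5 were higher, 3 with an unadjusted p under 0.05, and the median was 0.29. *Adamts1* had a log2 fold change of 0.36 ± 0.16, *Adamts15* of 0.58 ± 0.23, *Adamts9* of -0.07 ± 0.10 and *Adamts5* of 0.21 ± 0.26. Of the 12 other leucine-rich proteoglycans 10 were higher, 3 with an unadjusted p under 0.05, with a median of 0.43. The list was led in level by *Fmod* (fibromodulin), with 71.5, 48.0 and 31.9 CPM against 78.8, 93.2 and 69.0 CPM (0.67 ± 0.23). *Tsku* (0.38 ± 0.13) and *Prelp* (0.92 ± 0.28) did not overlap between the labels. Of the 20 genes that build chondroitin and dermatan sulfate, the sugar chains of versican, biglycan and decorin, 18 were higher, 9 with an unadjusted p under 0.05, with a median log2 fold change of 0.33. *Chsy1* (0.32 ± 0.14), *Chst11* (0.29 ± 0.14) and *Chpf* (0.43 ± 0.13) were higher on average and the xylose kinase *Fam20b* was lower in every mutant library (-0.21 ± 0.09). DESeq2's Wald test called 5 genes of these lists, of which *Bmp1*, *Adamts20*, *Prelp* and *Chst3* were higher and *Itih2*, a hyaluronan-binding serum protein made by liver, was lower. *Itih2* had 3.32 and 1.02 CPM in wildtype replicates 2 and 3, the libraries with liver markers, and at most 0.0267 CPM in the others.

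The genes most like a member in profile were sought by the root mean square difference of centred log2 CPM over the 6 libraries, among 11286 genes that averaged 10 CPM or more. Nearest to *Vcan* were *Robo1* (0.0185), *Fbn2* (0.0373) and *Igsf10* (0.0609), and nearest to *Postn* were *Itih5* (0.0348), *Xylt1* (0.0658) and *Gpm6b* (0.0732). *Robo1*, a receptor of Slit ligands, had 172.1, 91.1 and 95.6 CPM in the wildtype libraries and 160.1, 169.6 and 154.7 CPM in the mutant libraries, a copy of the *Vcan* profile at a lower level. Nearest to *Dcn* were *Slc27a3* (0.0538), *Thbs2* (0.0613) and *Unkl* (0.0630). Nearest to *Lum* was *Has2* itself (0.0564), before *Crispld1* (0.0726) and *Igf1* (0.0744). How many genes come this close to a given profile over 6 libraries was not counted, so the nearness says only that the values run in parallel.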

How the data were processed

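Bulk RNA-Seq of 6 libraries of E13.5 OFT was analysed, sequenced as 50-base read pairs after ribosomal RNA depletion with a stranded kit. Alignment to mm10 used TopHat2 2.1.0 and counting on exons used GenomicAlignments. What the authors deposited, and what was analysed, are raw read counts for each gene. The annotation release and the strand setting of the counting are not given in the sources used here. Groups follow the labels. p-values measure the spread between libraries of pooled OFTs.

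Counts were tested in R 4.3.3 with edgeR 4.0.16 (quasi-likelihood test, TMM). A gene needed more than 5 reads in total to be tested, and p-values were adjusted by Benjamini-Hochberg over the 28157 genes that had them, with calls at an adjusted p of at most 0.05. Levels of single genes were compared by an exact two-sided permutation test of log2 of CPM plus 0.5, which cannot go below p = 0.1. Gene positions and exon lengths are those of the GENCODE annotation of mm10, and promoter sequences those of RefSeq. Code was tested on simulated counts.

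The 10 genes, the related lists, the marker lists (Mesenchymal, Cartilage, VSMC, Myocardial, Endothelial, Liver, Blood, Epicardial, Endoderm, Macrophage, Neuronal, and Neural crest and glia) and the tests were chosen with earlier results of these data known. Genes named are the 10, the targeted genes, the genes of their neighbourhoods, the 4 of each related list with the highest mean CPM, and the 3 nearest in profile to *Vcan*, *Postn*, *Dcn* and *Lum*. *Bmp1*, *Adamts20*, *Chst3*, *Itih2*, *Hapln2* and *Gm8546* lay outside this rule and were picked with their values in view. Alternatives were DESeq2 1.42.0, limma-voom 3.58.1, other scalings and filters, a stricter threshold, a replicate block, a correction for GC content and length, a Myocardial covariate and each library left out. A Mesenchymal covariate was added after seeing the data.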

Additional observations from a re-analysis of the deposited data

How the results depend on the processing

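Over 18 alternative settings the 10 genes gave 180 fold changes, of which 148 kept their direction and side of the threshold, 21 passed the threshold in the same direction and 11 turned direction. DESeq2's Wald test called 1 of the 10 genes, 5 genes of the related lists and 2 targeted genes. Leaving out each library in turn called between 0 and 7 of the 10, between 0 and 22 of the related genes, between 0 and 1 of the cluster neighbours (*Epyc*) and between 0 and 2 targeted genes, with the highest number of the 10 and of the related genes reached without wildtype replicate 1. Of all genes, the fit without wildtype replicate 1 called 9.45%, and the fits without any other library called between 0.00364% and 0.0109%. A replicate block by title number called 6 of the 10, 21 related and 2 targeted genes (5.6% of all genes). The block with a correction for GC content and length called 7, 25 and 2 (8.01% of all genes), and a block by description number called 0, 2 and 2 (0.295%). Same-numbered libraries correlated in their deviations at 0.096, 0.159 and 0.42, not all above 0.1, so the numbers were not taken to pair the libraries, and replicate 1 did not correlate best with its own number. The correction for GC content and length alone and the Myocardial covariate called 0 targeted genes against 1. Without gene length 7 of the 10 changed rank in level, and by the mutant mean 4 did. Scaling by library size only gave a median log2 fold change of 0.114 over all genes and of 0.56 over the 10. The Mesenchymal covariate gave -0.01 for *Vcan*, -0.18 for *Has2*, -0.09 for *Cd44*, -0.00 for *Bgn*, -0.20 for *Lum* and -0.54 for *Aspn*. *Aspn* had -0.17 with the Myocardial covariate. With each library left out, *Aspn* ran from -0.11 (without wildtype replicate 3) to 0.87, *Cd44* from -0.09 (without wildtype replicate 2; -0.04 without mutant replicate 3) to 0.21, and *Ogn* from -0.38 to 0.05 (without wildtype replicate 2). The cause was not tested. Depth limited *Kera*, *Epyc*, *Omd* and the scarce link proteins and lecticans; for the 10 genes the spread between wildtype libraries and not depth set the error.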

Other observations

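All 8 Blood markers were lower under the mutant label, with log2 fold changes from -0.96 to -0.55, and 7 were called as lower by edgeR without wildtype replicate 1, in the fit that called 9.45% of all genes. They summed to between 5304 and 11800 CPM under the wildtype label and between 6091 and 6231 CPM under the mutant label, with a median log2 fold change of -0.56, and the sums overlapped through wildtype replicate 1 (5304 CPM, against 11800 and 10110 CPM in wildtype replicates 2 and 3). Leaving out wildtype replicate 1 therefore widens the difference of the Blood sums by construction. The 6 Macrophage markers summed to between 94.2 and 143.9 CPM and between 95.0 and 107.4 CPM. The markers of Neural crest and glia summed to between 23.6 and 36.4 CPM under the wildtype label and between 32.5 and 40.5 CPM under the mutant label. The Neuronal markers lay between 11.4 and 23.2 CPM and between 25.7 and 33.9 CPM, and the Endoderm markers between 10.7 and 14.3 CPM and between 9.18 and 11.8 CPM. With all libraries 0 markers of these lists were called by edgeR. At an unadjusted p under 0.05, 6 Blood markers were lower, 1 Macrophage marker was lower, 1 marker of Neural crest and glia was higher, and of the Neuronal markers 1 was higher and 1 lower.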
